A study of Mus musculus with 2 samples.

Results

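The S100 proteins are small calcium-binding proteins, and 8 of their genes were followed here in sorted corneal epithelial cells: S100a8, S100a9, S100a4, S100a6, S100a10, S100a11, S100a14 and S100a16. They were taken by name from the 31053 genes counted, and 17 genes with an S100 name were counted in all. The cells came from mice of genotype CycB1-GFP, whose green fluorescent reporter follows Cyclin B1, a protein of dividing cells. Live GFP-positive cells of the corneal epithelium were sorted, with no treatment named and neither age nor unsorted cells given in the labels. The labels name 1 group of 2 replicates, and the matrix holds 2 libraries, called library 1 and library 2 because nothing ties either to a numbered replicate. Each library is 1 sample, and nothing says whether it came from separate animals, so a difference between the libraries has no replicate error and is given without a test. For comparisons within the libraries, the level of each library is set aside. The p-values then set a difference against a spread taken from all cell classes of both libraries and drawn toward that of other genes. That spread may be technical, and a small p-value does not show that both libraries gave the difference.

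S100 proteins carry a pair of EF-hand motifs and work mostly as dimers that bind partners such as annexins when calcium rises. S100a8 and S100a9 form calprotectin, a metal-chelating alarmin that is abundant in neutrophils and is induced in stressed or wounded epithelium, as is the keratin gene Krt16. S100a6, S100a10 and S100a11 are widely expressed in epithelia. Krt12 is the keratin of differentiated cornea, and Krt15 marks basal and limbal cells at the border with the conjunctiva.

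After cells with at least 500 genes and under 20% mitochondrial UMIs were kept, 3187 cells of library 1 and 3001 of library 2 remained, with medians of 5571 and 5886 UMIs (unique molecular identifiers, 1 for each RNA molecule captured). The libraries shared 5 barcode sequences. Cells with at least 5 Krt12 and Krt15 UMIs were placed in bands by the Krt12 share of that sum: 663 and 959 cells lay under 0.4, 161 and 164 between 0.4 and 0.8, and 2304 and 1821 above 0.8 in library 1 and library 2. The other 59 and 57 cells had too few keratin UMIs. The fixed markers fitted the label of an epithelium: 3 corneal markers (Krt12, Aldh3a1 and Tkt) summed to 21796 and 26296 CPM (counts per 1e6 UMIs), whereas 6 keratocyte and fibroblast markers summed to 0.266 and 0.112 CPM. Of 6 neutrophil markers, Csf3r, Retnlg and Ly6g were at 0 in both libraries, and the list summed to 0.959 CPM in library 1 and 3.15 CPM in library 2.

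All 8 genes lie on mouse chromosome 3 (GENCODE M21, GRCm38). S100a14 (90526856 to 90528837), S100a16 (90537254 to 90543151), S100a4 (90603771 to 90606045), S100a6 (90612882 to 90624181), S100a8 (90668978 to 90670035) and S100a9 (90692632 to 90695721) fall within 169 kb, and only S100a9 is on the minus strand. S100a11 (93520488 to 93526287) and S100a10 (93555080 to 93564643) lie 2825 kb further on, beyond the epidermal differentiation genes. S100a8 and S100a9 are neighbours, 22.6 kb apart. Their promoters are shown with that of S100a11, because S100a8 and S100a9 differed together between the libraries and S100a11 varied with Krt16. Each run is the 150 bases before the RefSeq transcription start (GRCm38.p6), read 5′ to 3′, with matches to a searched motif in capitals.
S100a8, chr3:90668921-90669070, plus strand: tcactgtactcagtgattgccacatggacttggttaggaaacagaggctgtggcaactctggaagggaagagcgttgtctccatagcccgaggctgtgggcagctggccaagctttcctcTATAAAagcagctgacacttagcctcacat
S100a9, chr3:90695722-90695871, minus strand: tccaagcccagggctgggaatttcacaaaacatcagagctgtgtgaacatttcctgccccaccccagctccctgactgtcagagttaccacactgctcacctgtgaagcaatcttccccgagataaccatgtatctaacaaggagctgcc
S100a11, chr3:93520346-93520495, plus strand: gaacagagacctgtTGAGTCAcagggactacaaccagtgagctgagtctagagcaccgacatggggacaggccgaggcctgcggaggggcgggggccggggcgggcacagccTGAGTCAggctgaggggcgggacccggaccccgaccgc
The motifs searched on both strands were the TATA box TATAAA, AP-1 TGANTCA, C/EBP TTNNGCAA, STAT TTCNNNGAA and the NF-kB motif. S100a8 held 1 TATA match, 30 bases before its start, a motif found in 7.57% of 32851 such windows. S100a11 held 2 AP-1 matches, 136 and 38 bases before its start, and 4.24% of windows held at least 1. The S100a9 window held none of the 5 motifs. Of the 8 genes, 6 had a RefSeq window, and S100a10 and S100a14 are named only. Among the windows not shown, S100a4 also held 1 TATA match, 31 bases before its start. The S100a6 window and both windows of S100a16, which varied with Krt16 too, held none of the 5 motifs. A link of any motif to these differences was not tested.

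The family was dominated by S100a6, calcyclin, a partner of Cacybp and annexin A11. S100a6 reached 11071 CPM (95% Poisson interval 11024 to 11119) in library 1 against 7356 CPM (7316 to 7396) in library 2, and it made up 65.9% and 62.5% of the UMIs of the 8 genes. The kit tags 3′ ends of RNA, so UMIs are not divided by transcript length, and the order of levels between genes describes UMIs only. S100a11, a partner of annexin A1, followed at 2307 and 1635 CPM. S100a10, which has lost calcium binding and pairs with annexin A2, stood at 1899 and 1701 CPM. S100a16 was at 681 and 705 CPM, and S100a14, an epithelial member, at 439 and 328 CPM. S100a4, known from motile and immune cells and a partner of the myosin Myh9, was scarce, at 16.1 and 16.97 CPM. The 8 genes together took 1.68% of all UMIs in library 1 and 1.18% in library 2.

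S100a6, S100a10 and S100a11 were found in nearly every cell, and S100a8, S100a9 and S100a4 in few. To compare cells at 1 depth, 2884 and 2688 cells with at least 1900 UMIs were drawn down to 1900 UMIs each. S100a6 was then detected in 99.9% and 99.8% of cells, S100a10 in 95.4% and 93.8% and S100a11 in 96.7% and 92.6%. S100a16 was detected in 67.8% and 70.4%, S100a14 in 47.3% and 40.7%, and S100a4 in 2.64% and 2.98%. S100a9 was detected in 15.4% of library 1 cells (443 of 2884, exact binomial interval 14.1 to 16.7%) and 2.01% of library 2 cells (54 of 2688, 1.51 to 2.61%), against 24.2% and 3.97% of kept cells without thinning. S100a8 was detected in 11.5% of library 1 cells (10.4 to 12.7%) and 0.521% of library 2 cells (0.285 to 0.872%), against 18.7% and 1.20% without thinning. Among thinned cells of library 1, 50% of the S100a9 UMIs lay in 3.16% of cells, and 50% of the S100a6 UMIs in 29.3%. These shares depend on the mean, which was 0.372 UMIs a cell for S100a9 and 20.2 for S100a6. Variance over mean was 4.05 for S100a9 and 6.27 for S100a6, so by that measure S100a6 was the more unevenly spread. Without thinning, none of the 2 and 9 cells with UMIs for 3 or more immune markers (median depths 3308 and 2512 UMIs) had an S100a8 or S100a9 UMI. These cells are too few to measure a background share, and the part of free RNA in the shares was not tested.

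S100a8 and S100a9 exceeded library 2 in library 1 by more than any other gene measured at 20 CPM or more. S100a8 had 2813 UMIs in library 1 and 75 in library 2, which is 149.8 CPM (144 to 155) against 4.21 CPM (3.31 to 5.28), 35.6 times as high (counting interval 28.3 to 45.3). S100a9 had 4565 and 339 UMIs, 243 CPM (236 to 250) against 19.0 CPM (17.1 to 21.2), a ratio of 12.8 (11.4 to 14.3). Ranked by this ratio among 6098 genes, S100a8 was number 1, S100a9 number 2 and Krt16 number 17, at 334 and 90.4 CPM with a ratio of 3.70 (3.50 to 3.91). Intervals cover counting error only, since each library is 1 sample. They also treat UMIs as independent, and the UMIs of these genes were bunched in cells, so they are too narrow. Variance over mean across thinned cells was 3.71 and 1.35 for S100a8 and 4.05 and 2.77 for S100a9 in library 1 and library 2.

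The other 6 members differed far less. S100a6 had a ratio of 1.51 (1.49 to 1.52), S100a11 of 1.41 (1.39 to 1.43), S100a14 of 1.34 (1.30 to 1.39) and S100a10 of 1.12 (1.10 to 1.13), all higher in library 1. S100a16 (0.967, 0.943 to 0.991) and S100a4 (0.948, 0.806 to 1.12) were close to equal, and the interval for S100a4 included 1. Of the 7 members with 20 CPM or more in a library, 2 were past a 2-fold difference, S100a8 and S100a9, both higher in library 1. Over all 6098 genes, 0.804% were past 2-fold in that direction and 1.61% in the other. The median log2 ratio of the 8 members was 0.46, against -0.06 over all genes.

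S100a8 and S100a9 were higher in library 1 in every band, and the ratios of S100a6, S100a11 and S100a14 varied with the band. The S100a8 ratio was 47.7 (29.5 to 82.4) under a Krt12 share of 0.4, 30.1 (17.0 to 58.8) in the middle band and 34.0 (25.3 to 46.8) above 0.8. The S100a9 ratio was 11.5, 8.40 and 15.99 in the same order. S100a6 differed little under 0.4, with a ratio of 1.12, and more above 0.8, at 1.70. S100a11 went from 1.10 to 1.59 and S100a14 from 1.05 to 1.59 between the same bands. In cells above 0.8 with no Krt16 UMI after thinning, a comparison added after the data were seen, S100a8 still had 388 UMIs in library 1 and 8 in library 2, a ratio of 41.7 (20.9 to 97.2), and S100a9 had 512 and 24, a ratio of 18.3 (12.2 to 28.9). In cells with 3 or more Krt16 UMIs the S100a9 ratio was 3.21 (1.58 to 7.62), on 118 and 8 UMIs, and S100a8 had 41 and 0 UMIs. The 8 S100a9 UMIs lay in 13.6% of 22 cells, so this interval is too narrow. The neutrophil markers had 18 UMIs in library 1 and 56 in library 2, and their part in the S100a8 and S100a9 levels was not tested.

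**Figure D1:**
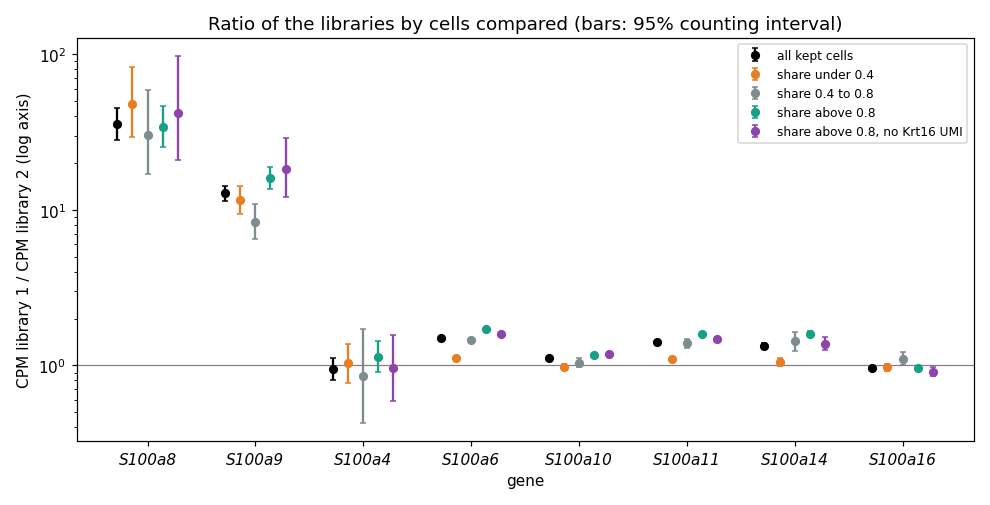
Ratio of CPM in library 1 to library 2 (log axis) for each S100 gene, in all kept cells, in each Krt12 share band and in cells above 0.8 with no Krt16 UMI; points are ratios and bars 95% counting intervals. In these cells S100a8 and S100a9 lie between 8.40 and 47.7, and the other 6 genes between 0.860 and 1.70.

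The next comparison set corneal against limbal-type keratin content inside each library: cells with a Krt12 share above 0.8 against cells under 0.4. UMIs were summed per library and band and fitted with edgeR's quasi-likelihood test with library as a block. S100a4 fell with rising Krt12 share, from 23.8 to 13.3 CPM in library 1 and from 23.0 to 11.7 CPM in library 2, with 15.2 and 17.7 CPM in the middle band. Its levels above 0.8 were the lowest in both libraries, and its log2 fold change was -0.88 (SE 0.17, edgeR adjusted p 0.000132). S100a14 went from 500.5 to 423 CPM in library 1 and from 476 to 266 CPM in library 2, with a log2 fold change of -0.52 (SE 0.14, edgeR adjusted p 0.0352). Conjunctival markers went the same way, from 1017 to 112 CPM in library 1 and from 1867 to 109 CPM in library 2, as did immune markers, from 2.49 to 0.578 and from 48.3 to 2.60 CPM, and their part in the S100a4 and S100a14 values was not tested. So 2 of 8 members were called lower and 0 higher, where 16.9% and 15.6% of the 11138 genes tested were called in those directions and 32.5% in either. The median log2 fold change of the 8 members was -0.20, against 0.01 over all genes tested. S100a14 lost its call with bands at 0.2 and 0.9 (edgeR adjusted p 0.0979) and without the library block (0.338), and its value was -0.19 in library 1 alone and -0.82 in library 2 alone.

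Neither S100a8 nor S100a9 differed between these ends of the keratin range beyond the spread of the fit. S100a8 stood at 161 CPM under 0.4 and 133 CPM above 0.8 in library 1, and at 3.38 and 3.90 CPM in library 2, with a log2 fold change of -0.18 (SE 0.13, edgeR adjusted p 0.297). S100a9 stood at 249.96 and 220.2 CPM in library 1 and at 21.7 and 13.8 CPM in library 2, with a log2 fold change of -0.30 (SE 0.18, edgeR adjusted p 0.283). Without the low-count filter S100a9 passed the threshold at nearly the same size (-0.29, edgeR adjusted p 0.0305). S100a6 differed in opposite directions, from 10074 to 11450 CPM in library 1 and from 9003 to 6721 CPM in library 2, and its joint log2 fold change was -0.10 (SE 0.22, adjusted p 0.813). S100a11 was nearly level in library 1, at 2274.0 CPM (Poisson interval 2225 to 2324) and 2330.2 CPM (2305 to 2356). In library 2 it went from 2068 to 1464 CPM (joint log2 fold change -0.21, SE 0.15, edgeR adjusted p 0.384). S100a11 too passed without the low-count filter (-0.20, edgeR adjusted p 0.0185). S100a10 (0.12, SE 0.07) and S100a16 (-0.14, SE 0.07) had the smallest SE and did not pass either, but S100a16 passed among cells with at least 20 Krt12 and Krt15 UMIs (-0.21, edgeR adjusted p 0.0278). For S100a10, library 1 alone gave 0.27 and library 2 alone -0.01. The difference between the libraries in the slopes of S100a6, S100a10 and S100a11 was not tested, because the fit has no replicate of a library.

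**Figure D2:**
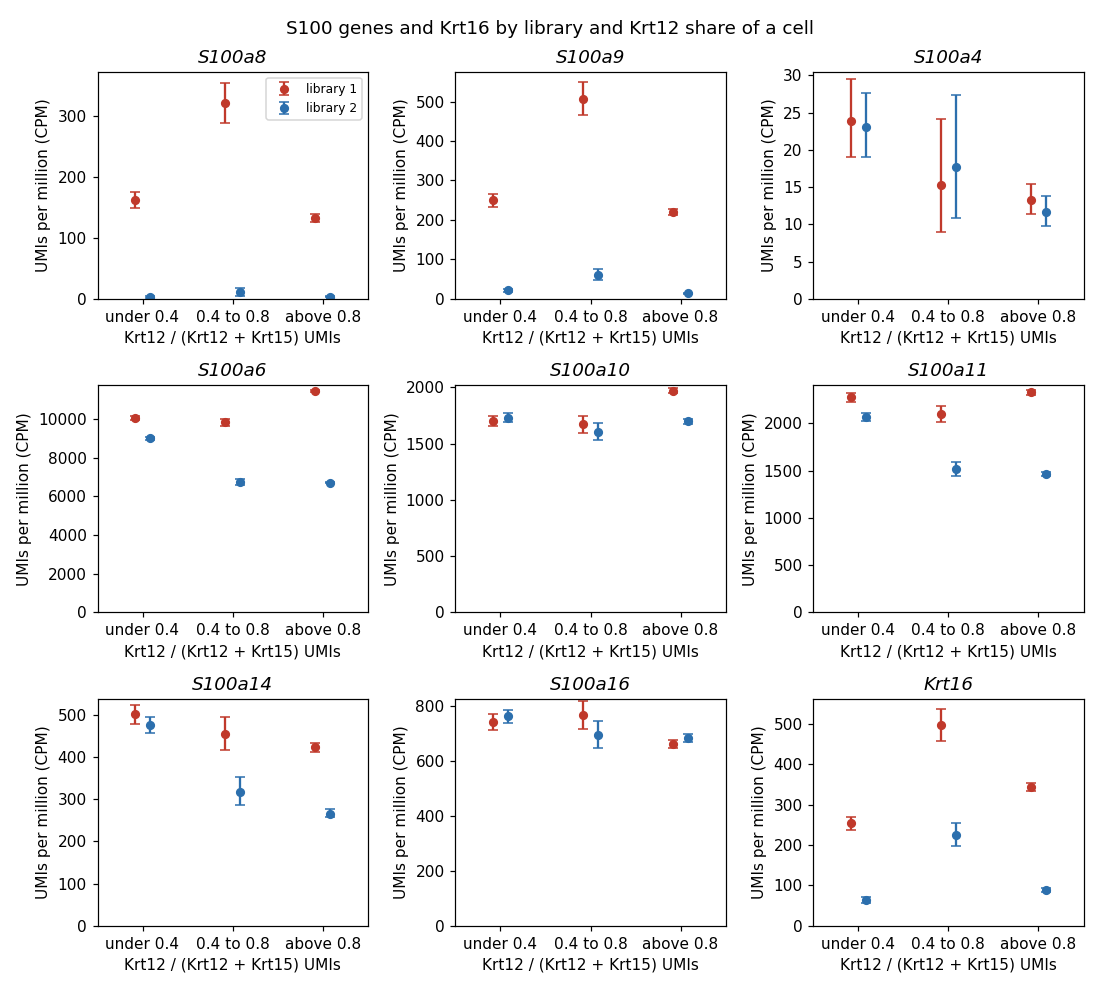
CPM of the 8 S100 genes and Krt16 in each Krt12 share band, library 1 in red and library 2 in blue; points are sums over cells and bars 95% Poisson intervals. S100a8, S100a9 and Krt16 are highest in the middle band in both libraries, at 319.9 and 10.6 CPM for S100a8.

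S100a8 and S100a9 were highest in the middle band, where cells held both keratins. S100a8 was at 319.9 CPM there in library 1 against 10.6 CPM in library 2, and S100a9 at 506 and 60.2 CPM, above both other bands of the same library. The pattern was noticed in these values, so a contrast of the middle band with the mean of both others, written afterwards, restates it and is given as a size without a test. On the log2 scale it was 1.15 for S100a8 (SE 0.12) and 1.28 for S100a9 (SE 0.18), and between -0.18 and 0.03 for the other 6 members. Over all 11138 genes, edgeR put 0.485% past the threshold as higher and 0.0449% as lower. Krt16 was also highest in the middle band, at 496 and 224 CPM (1.10, SE 0.24). After thinning the values were 1.46 for S100a8, 1.39 for S100a9 and 1.08 for Krt16. Among thinned cells of library 1, 25.3% of the middle band had an S100a8 UMI, against 10.7% in each other band. In library 2 the middle band value of S100a8 rests on 12 UMIs. There 4 of 152 thinned middle band cells had an S100a8 UMI (2.63%, exact binomial interval 0.722 to 6.60%). S100a9 was detected in 4.61% of the same cells (1.87 to 9.26%), an interval that overlaps the 3.04% under 0.4 (2.01 to 4.39%). In library 1 S100a9 was detected in 28.5% of thinned middle band cells, against 14.3% and 14.8%. Before thinning, the thinned cells had medians of 5061, 6450.5 and 6090.5 UMIs by band in library 1 and 5262, 6312.5 and 6564 in library 2. Without the 3% of cells with most UMIs in each library the log2 values were 1.32 for S100a8 and 1.16 for S100a9. The part of doublets in the middle band was not tested beyond this.

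The third comparison related the members to Krt16 itself, with the Krt12 share held above 0.8. Thinned cells were classed as having 0, 1 to 2, or 3 or more Krt16 UMIs, which gave 1816, 141 and 101 cells in library 1 and 1560, 55 and 22 cells in library 2. S100a9 went from 148 to 336 to 615 CPM over these classes in library 1 and from 8.10 to 76.6 to 191 CPM in library 2. It was lowest without Krt16 and highest with 3 or more UMIs in both libraries. Its log2 fold change between the outer classes was 2.48 (SE 0.35, edgeR adjusted p 0.000148). In library 2 the class of 1 to 2 rests on 8 S100a9 UMIs in 3.64% of 55 cells. The class of 3 or more rests on 8 S100a9 UMIs in 13.6% of 22 cells, so the order there depends on few cells. The call was lost when cells were thinned to 3000 UMIs (2.37, edgeR adjusted p 0.345) and without the library block (2.59, adjusted p 0.541).

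S100a8 missed the threshold. In library 1 it went from 112 to 179 to 214 CPM, on 388, 48 and 41 UMIs. In library 2 it had 8, 1 and 0 UMIs, and the Poisson interval of the 0 reaches 88.3 CPM. The joint log2 fold change was 0.98 (SE 0.31, edgeR adjusted p 0.0684). It passed without the 3% of cells with most UMIs (1.13, edgeR adjusted p 0.0339). Whether S100a8 and S100a9 differ in this response was not tested.

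S100a14, S100a11 and S100a16 were higher with Krt16. S100a14 went from 334 to 1027 CPM in library 1 and from 242 to 598 CPM in library 2, with a log2 fold change of 1.52 (SE 0.21, edgeR adjusted p 3.71e-05). S100a11 went from 2050 to 4242 CPM in library 1 and from 1390 to 2584 CPM in library 2 (0.98, SE 0.17, adjusted p 0.000834). S100a16 went from 608 to 1100 CPM in library 1 and from 666 to 1148 CPM in library 2 (0.82, SE 0.19, adjusted p 0.0103). All 3 were lowest without Krt16 in both libraries, with the class of 1 to 2 UMIs in between. After scaling by edgeR, library 2 alone gave 0.93 for S100a14, 0.52 for S100a11 and 0.41 for S100a16, and library 1 alone 1.68, 1.11 and 0.92. Without the low-count filter S100a11 (0.85, edgeR adjusted p 0.0668) and S100a16 (0.70, adjusted p 0.300) lost their calls. Without the library block none of the 3 passed, at similar sizes: 1.02 for S100a11 (edgeR adjusted p 0.210), 1.57 for S100a14 (0.0768) and 0.82 for S100a16 (0.129).

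S100a6 stood at 10377 and 16863 CPM in library 1 and at 6543 and 8038 CPM in library 2, with a joint log2 fold change of 0.49 (SE 0.17) that missed the threshold (edgeR adjusted p 0.0957). After scaling by edgeR its value in library 2 alone was -0.07, the opposite direction to its CPM. It passed in 4 alternatives, among them cells with 1 or more Krt16 UMIs (0.49, edgeR adjusted p 6.15e-05). S100a10 stood at 1968 and 1860 CPM in library 1 and at 1665 and 2536 CPM in library 2 (0.23, SE 0.18, adjusted p 0.575). S100a4 was too scarce to be tested. So 4 of 7 tested members were called higher and 0 lower, where 3.29% and 2.49% of 3978 genes were called in those directions and 5.78% in either. The median log2 fold change was 0.98 over the tested members and -0.04 over all genes, but genes enter this test only when their UMIs suffice.

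**Figure D3:**
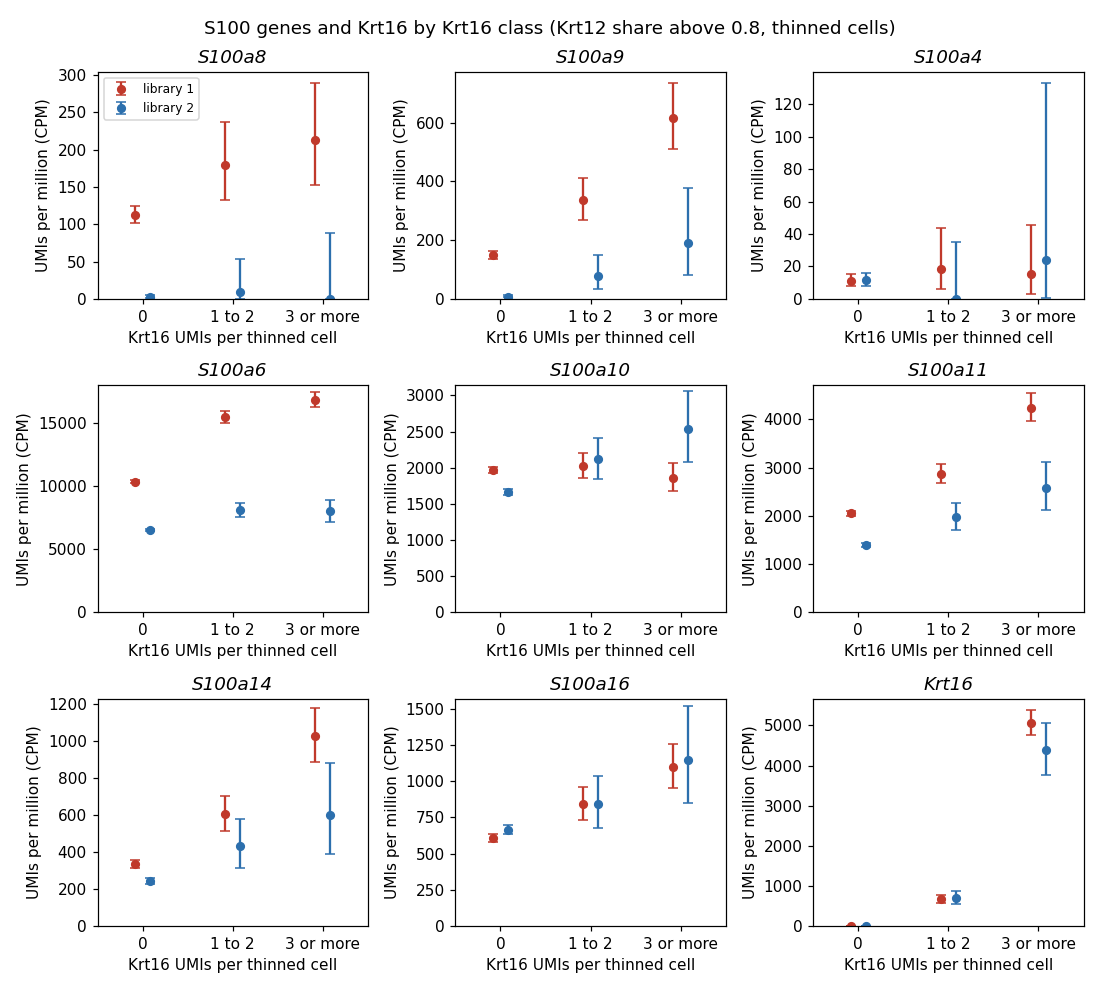
CPM of the 8 S100 genes and Krt16 in cells with a Krt12 share above 0.8, by the number of Krt16 UMIs in a cell thinned to 1900 UMIs; points are sums over cells and bars 95% Poisson intervals. S100a9 reaches 615 CPM in library 1 and 191 CPM in library 2 at 3 or more Krt16 UMIs.

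Among thinned cells with a Krt12 share above 0.8, most S100a9 UMIs were counted in cells with no Krt16 UMI. That class depends on depth. At any Krt12 share, Krt16 was detected in 11.96% of the 2884 thinned cells of library 1. Without thinning it was detected in 19.1% of its 3187 kept cells. Of the thinned cells above 0.8, 4.91% in library 1 and 1.34% in library 2 had 3 or more Krt16 UMIs. They held 16.4% and 20.0% of the S100a9 UMIs of the cells above 0.8. Cells with no Krt16 UMI were 1816 of 2058 cells in library 1 and 1560 of 1637 in library 2. They held 71.1% and 60.0% of S100a9 UMIs, less than their share of cells. Before thinning the Krt16 classes differed in depth, with medians of 5968.5 and 8125 UMIs in library 1 and 6524.5 and 6998.5 in library 2 for 0 and for 3 or more. Between cells with 0 and with 3 or more Krt16 UMIs, conjunctival markers went from 71.3 to 307 CPM in library 1 and from 106 to 215 CPM in library 2, and limbal markers from 929.7 to 1360.1 and from 775 to 1435 CPM. Corneal markers went from 30258 to 20052 CPM in library 1 and from 37497 to 38995 CPM in library 2. The part of these markers in the S100 values was not tested, and the class of 3 or more, at 191900 and 41800 UMIs, was too small to measure neutrophil or immune markers.

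Among 17 genes known to rise with epithelial wounding, 4 had enough UMIs to be tested, and genes can reach that level through the class where they are high, so the counts are a description. Those past the threshold were Sprr1a, a cornified envelope precursor (log2 fold change 4.93, edgeR adjusted p 2.26e-05), and the keratins Krt17 (3.86, adjusted p 3.69e-12) and Krt6a (3.34, adjusted p 1.26e-12). Of 12 S100 partners and receptors, 9 were tested and 1 was higher, Anxa2, the partner of S100a10 (0.61, SE 0.18, edgeR adjusted p 0.0492), where 3.29% of all genes tested were higher and 5.78% were called in either direction. Of 9 other annexins 5 were tested and 0 passed. Of 11 regulators tied to S100a8 and S100a9, 9 were tested and 1 was higher, Klf5, a factor of basal epithelium (0.97, edgeR adjusted p 0.0175).

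Between the bands, where 15.6% of all genes tested were higher and 16.9% lower, the same lists gave these counts. Of the wound list, 11 were tested and 4 were lower above a Krt12 share of 0.8: Il1rn, the interleukin 1 receptor antagonist (-4.75, edgeR adjusted p 2.48e-14), Lcn2, an iron-sequestering defence protein (-3.81, adjusted p 1.35e-05), the alarmin Il33 (-3.23, adjusted p 8.02e-13) and, outside the rule for named genes and chosen after its value was seen, Sprr1a (-1.31, adjusted p 0.0344). Il1a was higher (1.37, edgeR adjusted p 0.0350). Of the 10 partners and receptors tested, Anxa1 was higher (0.41, edgeR adjusted p 1.35e-05), and Anxa2 (-0.23, adjusted p 0.0350), Anxa11 (-0.42, adjusted p 0.00897) and the receptor gene Tlr4 (-1.33, adjusted p 0.00205) were lower. Of 6 other annexins tested, Anxa6 was higher (0.54) and Anxa4 lower (-0.58). Of the 11 regulators, 3 were higher, led by Nfkbiz (0.95) and Junb (0.88), and 4 were lower, led by Cebpd (-1.82) and Klf5 (-1.11). Of 15 other S100 and S100-fused genes 4 were tested, and Tchh (-2.92, edgeR adjusted p 2.88e-10), S100a1 (-1.45, adjusted p 5.94e-10) and S100a13 (-1.24, adjusted p 4.50e-08) were lower. S100a1 stood at 24.9 and 29.1 CPM and S100a13 at 26.1 and 29.6 CPM over all kept cells, and S100a7a, the mouse psoriasin-type gene, at 1.92 and 0.730 CPM.

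The last comparison followed the cell cycle, since all cells were sorted for a reporter of division. Cells above a Krt12 share of 0.8 were ranked in each library by the share of G2/M-list UMIs among S-list and G2/M-list UMIs, and the highest tertile (671 and 529 cells) was set against the lowest (672 and 530). The tertiles are ranges of a score, and 804 of 2014 and 653 of 1588 cells lay within 0.05 of a boundary. S100a6 fell from 12006 to 11575 to 9361 CPM over the tertiles in library 1 and from 6820 to 6383 to 6054 CPM in library 2. It was lowest in the G2/M-rich tertile in both, with a log2 fold change of -0.36 (SE 0.04, edgeR adjusted p 2.12e-09). S100a9 stood at 209, 215 and 122 CPM in library 1 and at 19.9, 13.9 and 4.97 CPM in library 2, with a log2 fold change of -0.96 (SE 0.16, adjusted p 1.63e-06) and -1.74 in library 2 alone. S100a8 stood at 130.0, 153 and 80.8 CPM in library 1 (-0.79, SE 0.19, adjusted p 0.000941). Its library 2 values rest on 3, 4 and 2 UMIs (-0.38 in library 2 alone), and DESeq2 did not call it (-0.76, adjusted p 0.488).

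S100a11 was slightly lower in the G2/M-rich tertile (-0.18, SE 0.05, edgeR adjusted p 0.0117), at 2266 and 2042 CPM in library 1 and 1395 and 1388 CPM in library 2. Library 2 alone gave -0.09. Its call was lost with DESeq2 (adjusted p 0.614), with cells of all bands (adjusted p 0.424) and in cells with no Krt16 UMI (adjusted p 0.0784). S100a10 (-0.05, SE 0.05), S100a14 (-0.01, SE 0.09), S100a16 (0.03, SE 0.07) and S100a4 (-0.31, SE 0.40) did not pass. So 4 of 8 members were called lower and 0 higher, where 9.65% and 6.09% of 8615 genes were called in those directions and 15.7% in either. The median was -0.25 over the members and -0.02 over all genes tested. Krt16 was lower too, from 443 to 124 CPM in library 1 and from 103 to 38.8 CPM in library 2 (-1.83, SE 0.17, adjusted p 1.20e-07). In cells with no Krt16 UMI, an alternative added after the data were seen, S100a6 (-0.36, edgeR adjusted p 2.39e-10), S100a9 (-0.86, adjusted p 8.56e-05) and S100a8 (-0.96, adjusted p 8.35e-05) were still lower. Without the library block none of the 4 called members passed.

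**Figure D4:**
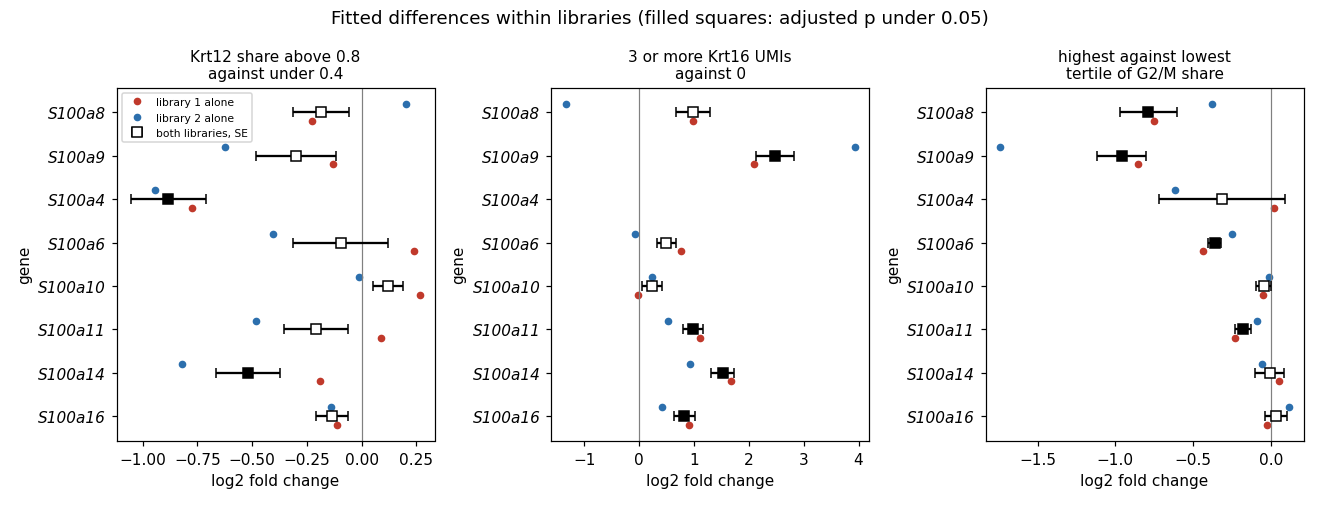
Log2 fold changes of the S100 genes in the 3 fitted comparisons (squares with SE, filled where the edgeR adjusted p is under 0.05) with the value of library 1 (red) and library 2 (blue) alone. S100a9 stands at 2.48 for Krt16 and -0.96 for the G2/M share, while S100a10 passes in none of the 3.

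For the G2/M share, 6.09% of all genes tested were higher and 9.65% lower. Of the wound list, 5 were tested and Krt17 (-1.06, edgeR adjusted p 8.11e-09) and Krt6b (-0.93, adjusted p 5.90e-06) were lower. Of the 11 regulators Cebpd (-1.16, edgeR adjusted p 0.00716) and Junb (-0.37, adjusted p 0.000103) were lower and Klf5 was higher (0.35, adjusted p 0.0292). Among 9 partners and receptors tested, Bsg (-0.29) and Anxa2 (-0.20) were lower and Ahnak (0.21) was higher. Among 6 other annexins, Anxa8 was higher (0.41) and Anxa3 lower (-0.48), and 0 of 3 other S100 genes passed.

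From cell to cell, S100a8 varied most closely with S100a9. Over thinned cells, Pearson's r of log2(UMIs + 1) was 0.43 in library 1 (2884 cells) and 0.21 in library 2 (2688 cells). Of the cells with an S100a8 UMI, 55.1% of library 1 (183 of 332) and 35.7% of library 2 (5 of 14) also had an S100a9 UMI, against 15.4% and 2.01% of all thinned cells. S100a9 correlated with Krt16 at 0.19 and 0.22, and S100a8 with Krt16 at 0.04 and 0.015. S100a6 and S100a11 correlated at 0.39 and 0.23, S100a11 and S100a14 at 0.21 and 0.17, and S100a6 and S100a14 at 0.23 and 0.22. S100a8 with S100a6 gave 0.13 and 0.00. S100a16 with S100a6 gave 0.02 and 0.11. These values describe cells that share a library and a depth, and are given without a test.

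The 7 genes outside the family most like the summed S100a8 and S100a9 signal, by the smaller r of the libraries among 4464 genes, were Lcn2 (0.20 and 0.19), Fabp5 (0.36 and 0.16), BC100530 (0.33 and 0.11), Krt17 (0.18 and 0.11), Krt14 (0.31 and 0.10), Ly6a (0.23 and 0.10) and 1600014C10Rik (0.11 and 0.09). Lcn2 stood at 83.3 CPM in library 1 against 52.3 CPM in library 2. Fabp5, a fatty acid-binding protein, stood at 5331 and 1742 CPM, and Krt14, a basal keratin, at 7112 and 4769 CPM. Ly6a was nearly level between the libraries, at 509 and 503 CPM.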

How the data were processed

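UMI counts of single cells were deposited by the authors as 1 whole-number matrix over both libraries (10x Chromium 3' v3, per the labels' protocols), made with Cell Ranger 3.1.0 on build GRCm38 (mm10), per the submitters' processing notes, which also name Seurat 5.0.0. How cells were called, and whether depth was equalised, is not given in the sources used here. Cells were assigned to libraries by barcode suffix. Doublets were not called, and removing the 3% of cells with most UMIs was an alternative.

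Sums per library and class were tested with edgeR 4.0.16 (quasi-likelihood, robust, TMM, filterByExpr, R 4.3.3), blocked by library, since classes of a library share its sample. Each fit had 6 sums and 2 residual degrees of freedom. The edgeR test moderates the spread of each gene with that of all genes, so its p-values rest on more than these 2. The threshold was a Benjamini-Hochberg adjusted p of 0.05 over all genes fitted. The genes that define the classes were part of this adjustment and were left out of the counts only. DESeq2 1.42.0 was an alternative. The S and G2/M lists had 42 and 52 genes in the matrix. The fits were also run on simulated counts with a fixed spread and the same change in both libraries. That run cannot check the error rate under the spread of these data. Listed genes are named when past the threshold, up to 4 a list by size, and those most like S100a8 and S100a9 by the smaller r, among genes in at least 5% of cells (8 by the rule, of which 1 is not reported here). The genes and lists were chosen with earlier results of these data known. S100a4 overlaps Gm42674, which had 0 UMIs. Intervals are 95%.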

Additional observations from a re-analysis of the deposited data

Results flagged for a closer look

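S100a4 stood apart in data the comparisons do not use, the kept cells with too few Krt12 and Krt15 UMIs to be placed in a band. It was at 103 CPM in the 59 such cells of library 1 (14 UMIs, Poisson interval 56.3 to 173) and at 353 CPM in the 57 of library 2 (31 UMIs, 239.9 to 501), above the 22.1 and 34.2 CPM that a count of 0 allows there, and against 16.1 and 16.97 CPM over all kept cells. In library 1, 1 thinned cell outside the bands held 10 S100a4 UMIs, and no thinned cell in a band held more than 1. Most of the 14 UMIs thus came from 1 cell, and the Poisson interval, which treats UMIs as independent, is too narrow there. The summed immune markers in cells outside the bands were at 2054 and 6436 CPM. Cells with UMIs for 3 or more immune markers held 1 S100a4 UMI in library 1 and 8 in library 2. The part of immune cells in the S100a4 level was not tested.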

How the results depend on the processing

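The bands, Krt16 classes and tertiles of a library share its sample, so the library block pairs them by design. Without the replicate block, genes called fell to 687 higher and 864 lower between bands (from 1739 and 1884), to 19 and 8 for Krt16 (from 131 and 99) and to 164 and 216 for the G2/M share (from 525 and 831). S100a9 for Krt16 was then 2.59, and S100a9 and S100a8 for the G2/M share -0.93 and -0.77, none past the threshold. DESeq2 gave 792 and 983, 62 and 24, and 102 and 174, with S100a8 for the G2/M share at -0.76. Thinning gave 1045 and 1084 between bands and 24 and 2 (from 54 and 5) for the middle band, and turned S100a8 between bands to 0.026. Cells of all bands gave 201 higher for Krt16 and 792 higher for the G2/M share. Thinning to 3000 UMIs gave 163 lower for Krt16 and an S100a9 value of 2.37. The lowest G2/M tertile, added later, gave 52 and 42 for Krt16. There S100a8 was 0.39, S100a6 0.20 and S100a10 0.05 (from 0.98, 0.49 and 0.23). S100a9 was 2.40, S100a11 0.99, S100a14 1.64 and S100a16 0.88. Its class of 3 or more Krt16 UMIs had 6 cells in library 2. Among all cells of the Krt16 comparison, the median G2/M share with 0 and with 3 or more UMIs was 0.81 and 0.69 in library 1. In library 2 it was 0.79 and 0.78. The part of the cell cycle was not tested. Without the low-count filter S100a9 between bands was -0.29 and called, and without the 3% of cells with most UMIs S100a8 for Krt16 was 1.13 and called. The cause was not tested. Single libraries gave values with no test: between bands from -0.23 to 0.20 for S100a8 and from -0.62 to -0.13 for S100a9, for Krt16 from -1.34 (a class with 0 UMIs, so set by the prior count) to 0.98 for S100a8 and from 2.10 to 3.93 for S100a9, and for the G2/M share from -0.75 to -0.38 and from -1.74 to -0.85. For uncalled members the G2/M value changed sign with all bands for S100a4 (0.13), S100a10 (0.054) and S100a14 (0.062), and for S100a14 in cells with no Krt16 UMI (0.10) and without the filter (0.011).

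Between libraries, the middle band alone had 107 genes past 2-fold higher in library 1 and 183 lower, against 49 and 98. The S100a8 ratio was 47.7 under 0.4, and the S100a9 ratio 8.40 in the middle band, 15.99 above 0.8, 18.3 without Krt16 UMIs and 3.21 with 3 or more. Ratios near 1 crossed it: S100a4 1.03 under 0.4 and 1.14 above 0.8, S100a10 0.981 under 0.4 and 0.734 with 3 or more Krt16 UMIs, and S100a16 1.10 in the middle band. The number of UMIs limits the precision of S100a8 in library 2, with 75 in all.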
